A study of Mus musculus with 11 samples.

Results

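The genes Hes1, Hes5, Hes6, Hes7, Hey1, Hey2, Heyl and Nrarp were taken by symbol from a table of read counts, and they are 8 of its 38406 genes. All 8 were in the table and all 8 passed the low-count filter, as did 15228 genes in total. The 11 libraries came from cerebellar tumours of CD1 mice that model medulloblastoma, and they form 4 groups. In the N1ICD tumours (n = 3), MYC and Gfi1 were joined by N1ICD, which is the Notch1 receptor's intracellular domain, and expression was directed to Math1-positive cells. In the S100b-cell tumours (n = 3), MYC and Gfi1 were expressed in S100b-positive cells. The MYC/Otx2 tumours (n = 3) and the MYC/Gfi1 tumours (n = 2) expressed their 2 genes constitutively and stand for earlier mouse models of the Group 3 subtype. MYC was thus common to all 4 groups, and the N1ICD group differed from each of the others in N1ICD and also in the cells targeted, so these cannot be told apart. From the MYC/Otx2 tumours it also differed in carrying Gfi1 and not Otx2. That difference cannot be told apart either, there or against a mean that includes MYC/Otx2. The labels state neither age nor the promoters of the transgenes nor the number of animals, and p-values therefore measure the spread between libraries, which may be technical.

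When a Notch receptor binds its ligand, its intracellular domain is cut free, moves to the nucleus and joins the DNA-binding protein RBPJ to activate genes. Genes of the Hes and Hey families are the best known of these targets, and they encode basic helix-loop-helix repressors that hold back neuronal differentiation, while Nrarp encodes a small ankyrin repeat protein that limits Notch signalling in a feedback loop. In the cerebellum, Hes1 and Hes5 act in neural progenitors and radial glia, whereas Hes6 is an unusual family member that is expressed in neuronal precursors and favours their differentiation.

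The promoters of Hes5 and Hey2, which hold 2 RBPJ-type motifs each, are shown with those of Nrarp and Hes6, which hold no such motif, because these genes carry the differences described below. The search used the letters NGTGGGAA on both strands of RefSeq windows of 300 bases (GRCm38.p6). Each sequence is printed in the direction of the gene, with 250 bases before and 10 bases after the start site, and capitals mark an RBPJ-type motif or, in Nrarp, the E-box CACGTG.
Hes5, chr4:154960673-154960932, plus strand: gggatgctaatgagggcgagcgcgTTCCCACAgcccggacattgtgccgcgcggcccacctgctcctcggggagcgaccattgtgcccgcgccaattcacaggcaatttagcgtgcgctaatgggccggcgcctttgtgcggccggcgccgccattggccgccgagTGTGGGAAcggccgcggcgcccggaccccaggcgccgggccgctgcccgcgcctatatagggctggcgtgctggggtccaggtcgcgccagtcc
Hey2, chr10:30842774-30843033, minus strand: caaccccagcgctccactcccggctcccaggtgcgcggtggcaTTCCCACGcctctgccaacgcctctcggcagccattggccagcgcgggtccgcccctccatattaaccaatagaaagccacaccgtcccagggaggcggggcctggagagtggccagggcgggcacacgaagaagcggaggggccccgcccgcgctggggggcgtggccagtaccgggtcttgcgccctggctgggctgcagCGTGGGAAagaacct
Nrarp, chr2:25180508-25180767, plus strand: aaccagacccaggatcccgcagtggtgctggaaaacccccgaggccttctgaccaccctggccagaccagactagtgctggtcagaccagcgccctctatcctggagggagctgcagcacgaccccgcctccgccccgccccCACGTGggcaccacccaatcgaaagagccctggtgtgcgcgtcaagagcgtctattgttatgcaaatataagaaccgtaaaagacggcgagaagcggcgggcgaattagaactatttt
Hes6, chr1:91414029-91414288, minus strand: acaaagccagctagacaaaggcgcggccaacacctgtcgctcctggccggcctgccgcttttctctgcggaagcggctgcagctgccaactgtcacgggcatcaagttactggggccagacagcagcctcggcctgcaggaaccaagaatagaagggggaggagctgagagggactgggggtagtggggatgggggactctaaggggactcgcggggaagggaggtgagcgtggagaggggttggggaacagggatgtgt
The Hes6 window is the one at its annotated start, and a second RefSeq window of Hes6 held no motif either. The motifs of Hes5 began 226 and 84 bases before its start site, and those of Hey2 began 207 and 5 bases before its start site. Hes7 held 1 such motif, 180 bases before its start. These start sites are those of RefSeq, and for Hey2 and Hes7 they differ from the GENCODE gene bounds given below. By the GENCODE bounds, the nearer motif of Hey2 lies within the gene. At least 1 RBPJ-type motif was present in 6.37% of the 32851 promoter windows and at least 2 in 0.256%. The palindromic E-box, a class of site that several helix-loop-helix proteins bind, lay 108 bases before the start of Nrarp and in 7.15% of windows. Windows were matched for 5 of the 8 genes. Those of Hes1, Hey1 and Heyl were not matched. A match is only a run of letters, and binding was not measured.

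By the GENCODE annotation of GRCm38, all 8 are protein-coding genes. Heyl (chromosome 4, 123233556 to 123249875, plus strand) and Hes5 (chromosome 4, 154960923 to 154962371, plus strand) share a chromosome. Hey1 (chromosome 3, 8663359 to 8667256), Hey2 (chromosome 10, 30832359 to 30842801) and Hes6 (chromosome 1, 91411483 to 91414038) lie on the minus strand. Hes1 (chromosome 16, 30064384 to 30067796), Hes7 (chromosome 11, 69120404 to 69124055) and Nrarp (chromosome 2, 25180758 to 25183339) lie on the plus strand, and Nrarp has 1 exon. Genes on the opposite strand overlap Hes5, Hes7 and Nrarp. The one over Hes5, Gm20421, had 0 counts in all 11 libraries, and the one over Hes7, 9130213A22Rik, had 0 to 7 counts, while the one over Nrarp was not analysed here.

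Library totals ran from 2.58 to 3.38 M counts in the N1ICD group, 12.8 to 15.2 M in the S100b-cell group, 6.97 to 8.33 M in the MYC/Otx2 group and 6.53 to 7.53 M in the MYC/Gfi1 group. Mitochondrially encoded genes took 23.2% to 27.6% of counts in the N1ICD libraries, 14.7% to 18.5% in the S100b-cell libraries, 5.18% to 5.74% in the MYC/Otx2 libraries and 5.96% to 6.00% in the MYC/Gfi1 libraries. Depth and this share differ by group, so neither can be told apart from the models. Atoh1, the gene also called Math1, had 0 counts in all 3 N1ICD libraries, and S100b was at 1.23, 27.7 and 63.8 CPM in the S100b-cell libraries. Notch1 had 4, 1 and 6 counts in the N1ICD libraries and at most 7 in any other, but a 3′ tag counts a transgene only if it carries the 3′ end of the mouse gene.

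The N1ICD tumours were set first against the mean of the other 3 groups, since only they carry N1ICD. The count table names its libraries in 3 styles, with 1 for the N1ICD group, 1 for the S100b-cell group and 1 for both constitutive groups, so a difference between sets of libraries cannot be told apart from these groups in any comparison except MYC/Otx2 against MYC/Gfi1. Of the 8 genes, 5 rose (Heyl, Hey2, Nrarp, Hey1 and Hes5), Hes6 fell, and Hes1 and Hes7 did not pass the test. Across all genes tested, 9.48% were called higher and 4.83% lower in this comparison, with a call at an edgeR adjusted p under 0.05. Joint testing found a difference among the 4 groups in 6 of the 8 genes, all but Hes1 and Hes7, beside 28.4% of all genes. The N1ICD libraries lay above all 8 others for 4 genes and below them for 1, beside 4.93% and 3.70% of all genes. The median log2 fold change was 3.68 over the 8 genes and 0.02 over all genes tested. Levels are given as CPM, the counts per M counts of the TMM-scaled total, and because a 3′ library gives 1 tagged end per transcript they were not divided by length.

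Heyl, a Notch-induced repressor best known from the smooth muscle and pericytes of vessels, was at 82.7, 145 and 99.0 CPM in the N1ICD libraries. It was at 4.14, 1.38 and 3.91 CPM in the S100b-cell libraries, 0.283, 0.498 and 1.16 CPM in the MYC/Otx2 libraries, and 1.28 and 0.436 CPM in the MYC/Gfi1 libraries. Every N1ICD library lay above all 8 others, and the S100b-cell libraries in turn lay above the 5 constitutive ones. The log2 fold change of the N1ICD tumours was 5.11 ± 0.61 against the S100b-cell tumours, 7.34 ± 0.69 against MYC/Otx2 and 6.93 ± 0.82 against MYC/Gfi1 (SE; edgeR adjusted p = 0.00880, 5.38e-04 and 0.00294). These comparisons share the N1ICD libraries. The call against S100b-cell was lost without S100b-cell library 3 (adjusted p = 0.0608). The MYC/Gfi1 level rests on 11 and 3 counts, and the fold change against it was 7.92 without library 1 of that group and 6.38 without library 2, called in both cases (adjusted p = 0.00603 and 0.0159), where the library left is assumed to vary like the other groups. Among the groups without N1ICD, Heyl was higher in the S100b-cell than in the MYC/Otx2 tumours by 2.23 ± 0.60 log2 (edgeR adjusted p = 0.0317), but this call was lost without S100b-cell library 1 or 3 or MYC/Otx2 library 1 or 2 (adjusted p = 0.0885 to 0.102). The levels of MYC/Otx2 and MYC/Gfi1 overlapped.

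Hey2, a repressor needed in heart and artery development, was at 105, 73.6 and 70.2 CPM in the N1ICD libraries. In the S100b-cell libraries it was at 0.582, 0 and 0.469 CPM, in the MYC/Otx2 libraries at 0, 0.747 and 0.924 CPM, and in the MYC/Gfi1 libraries at 0.933 and 0.581 CPM. The 3 N1ICD libraries summed to 630 counts of Hey2, against 15 over the S100b-cell, 14 over the MYC/Otx2 and 12 over the MYC/Gfi1 libraries. Its level outside the N1ICD tumours was thus near the limit of detection, and the size of its fold change depends on a few counts. Hey2 also passed the low-count filter through the N1ICD libraries alone, so its test could hardly have found it lower there. That limit holds wherever Hey2 is counted among the genes that rose or did not overlap. The fitted log2 fold change was 7.83 ± 1.04 against S100b-cell, 7.14 ± 1.02 against MYC/Otx2 and 6.74 ± 1.20 against MYC/Gfi1 (SE; edgeR adjusted p = 0.0151, 0.00213 and 0.0113). The call against MYC/Gfi1 was lost without MYC/Gfi1 library 2 (adjusted p = 0.0539). Among the 3 groups without N1ICD no order could be read, since their levels overlapped.

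Hey1, a close relative of Hey2 that also forms dimers with Hes proteins, was at 97.3, 54.0 and 87.6 CPM in the N1ICD libraries. Unlike Hey2 it was readily detected elsewhere, at 11.6, 2.28 and 6.72 CPM in S100b-cell, 13.8, 17.2 and 8.67 CPM in MYC/Otx2, and 9.33 and 37.9 CPM in MYC/Gfi1 libraries. All N1ICD libraries lay above all others. The log2 fold change was 3.53 ± 0.68 against S100b-cell and 2.59 ± 0.65 against MYC/Otx2 (SE; edgeR adjusted p = 0.0412 and 0.0212). Against MYC/Gfi1 it was 1.76 ± 0.73 and did not pass (adjusted p = 0.138), with the lower MYC/Gfi1 library at 9.33 CPM and the higher one at 37.9 CPM, and it was 3.08 without library 2 of that group and 1.08 without library 1. The call against S100b-cell was lost under 11 of 21 alternatives, and that against MYC/Otx2 was lost without each MYC/Otx2 library in turn (adjusted p = 0.0694, 0.0515 and 0.0765).

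Nrarp, the feedback inhibitor, was at 354, 463 and 477 CPM in the N1ICD libraries and was the highest of the 8 genes in N1ICD libraries 2 and 3. It was at 17.2, 9.68 and 24.9 CPM in the S100b-cell libraries, 6.22, 11.8 and 4.62 CPM in the MYC/Otx2 libraries, and 56.8 and 6.97 CPM in the MYC/Gfi1 libraries. The N1ICD libraries were close to each other, with a highest level 1.35 times the lowest, and stood above all others, whereas the 2 MYC/Gfi1 libraries differed 8.14-fold. The log2 fold change was 4.64 ± 0.73 against S100b-cell, 5.83 ± 0.78 against MYC/Otx2 and 3.75 ± 0.84 against MYC/Gfi1 (SE; edgeR adjusted p = 0.0227, 0.00170 and 0.0223). Against MYC/Gfi1 it was 5.96 without library 1 of that group and 2.92 without library 2, with 1 MYC/Gfi1 library left each time. That call was lost with no low-count filter (edgeR adjusted p = 0.0537), with replicate number as a block (0.0554) and with those groups fitted alone (0.123). The call against S100b-cell was lost without each S100b-cell library in turn (edgeR adjusted p = 0.0677, 0.111 and 0.103) and with the replicate block (0.0589). The order of the other 3 groups cannot be read from these values: MYC/Gfi1 had the highest mean of them, which rested on library 1.

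**Figure D1:**
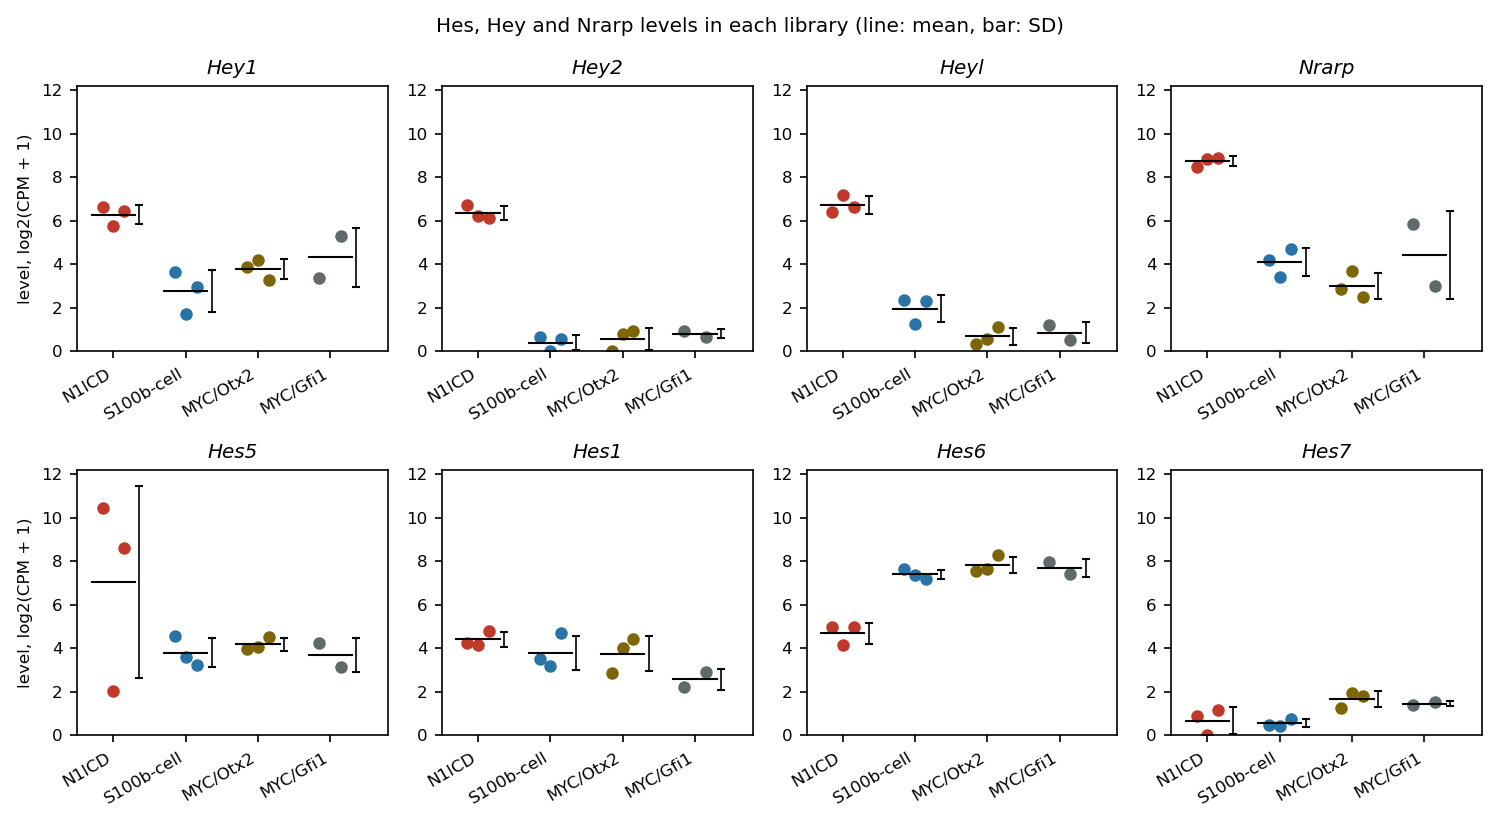
Level of each of the 8 genes in each library, as log2(CPM + 1) on the vertical axis, with the 4 groups on the horizontal axis; points are libraries, lines are group means and bars are SD (n = 3, and n = 2 for MYC/Gfi1). Heyl, Hey2, Hey1 and Nrarp are higher in all 3 N1ICD libraries than in any other, Hes6 is lower in all 3, and Hes5 spans a range from 3.14 to 1399 CPM within the N1ICD group.

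Hes5, the main Hes gene of neural progenitors, gave the widest spread of the set. It was at 1399, 3.14 and 385 CPM in the N1ICD libraries, 22.5, 11.1 and 8.52 CPM in the S100b-cell libraries, 14.7, 15.8 and 22.2 CPM in the MYC/Otx2 libraries, and 18.1 and 7.84 CPM in the MYC/Gfi1 libraries. N1ICD libraries 1 and 3 were above every other library and N1ICD library 2 was below every other library. Within the N1ICD group the highest level was 446 times the lowest, against 1.35 to 1.84 times for Nrarp, Hey1, Hey2, Heyl, Hes1 and Hes6. The log2 fold change was 5.40 ± 1.43 against S100b-cell, 5.08 ± 1.41 against MYC/Otx2 and 5.52 ± 1.73 against MYC/Gfi1 (SE; edgeR adjusted p = 0.101, 0.0309 and 0.0659), so that with edgeR it passed only against MYC/Otx2. DESeq2 called it against S100b-cell and MYC/Gfi1 as well (adjusted p = 7.04e-05 and 2.51e-04). Without N1ICD library 2 it was called in all 3 comparisons (adjusted p = 0.00959, 0.00306 and 0.0114). Without N1ICD library 1 the call against MYC/Otx2 was lost, with a log2 fold change of 3.47 (adjusted p = 0.0830), and it was lost under 8 of 21 alternatives in all.

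Hes1, a repressor with oscillating expression in progenitors and the most widely used target of the family, did not follow the Hey genes. It was at 18.0, 17.1 and 27.2 CPM in the N1ICD libraries, 10.4, 8.09 and 24.9 CPM in the S100b-cell libraries, 6.22, 15.1 and 20.5 CPM in the MYC/Otx2 libraries, and 3.73 and 6.54 CPM in the MYC/Gfi1 libraries. The N1ICD libraries overlapped with those of the S100b-cell and MYC/Otx2 groups and lay above both MYC/Gfi1 libraries. The log2 fold change against S100b-cell was 0.52, with a 95% interval of -0.69 to 1.73, and against MYC/Otx2 it was 0.57 (-0.64 to 1.79). Against MYC/Gfi1 it was 2.02 ± 0.66 (SE) and did not pass (edgeR adjusted p = 0.0740), while DESeq2 called it (1.99, adjusted p = 0.0208). With upper limits of 1.73 and 1.79, these intervals do not show that Hes1 is equal between the groups.

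Hes6 ran the other way. It was at 30.4, 16.7 and 30.8 CPM in the N1ICD libraries, 197, 166 and 145 CPM in S100b-cell, 189, 199.9 and 309 CPM in MYC/Otx2, and 251 and 169 CPM in MYC/Gfi1 libraries. All 3 N1ICD libraries lay below every other library, and the 3 other groups overlapped. Hes6 fell by 2.71 on the log2 scale against S100b-cell, by 3.16 against MYC/Otx2 and by 3.02 against MYC/Gfi1, with SEs of 0.32, 0.32 and 0.34 (edgeR adjusted p = 0.00880, 6.41e-04 and 0.00263). The calls against S100b-cell and MYC/Otx2 held under all 21 alternatives, and that against MYC/Gfi1 under 20. The exception was a fit of those 2 groups alone (adjusted p = 0.0761).

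Hes7, an oscillator of the segmentation clock in the embryo, was barely detected. It had 5 counts over the N1ICD libraries (0.857, 0 and 1.22 CPM) and 20 over the S100b-cell libraries (0.388, 0.346 and 0.704 CPM). It had 55 counts over the MYC/Otx2 libraries (1.41, 2.86 and 2.54 CPM) and 27 over the MYC/Gfi1 libraries (1.63 and 1.89 CPM). All 3 N1ICD libraries lay below all 5 constitutive ones, with a log2 fold change of -1.73 ± 0.95 against MYC/Otx2 and -1.36 ± 1.02 against MYC/Gfi1, and overlapped with the S100b-cell libraries; none of these differences passed (SE; edgeR adjusted p = 0.210 and 0.401 against the constitutive groups). A count of 3 stands for 1.05 to 1.29 CPM in the N1ICD libraries, so a level below that could not be told from 0 at this depth. The S100b-cell libraries also lay below all 5 constitutive ones, with a log2 fold change of -2.22 ± 0.86 against MYC/Otx2 and -1.85 ± 0.93 against MYC/Gfi1 (SE; edgeR adjusted p = 0.0980 and 0.257). Against MYC/Otx2 the difference was called by DESeq2 (adjusted p = 0.0172), by limma-voom (0.0426) and by edgeR with those groups fitted alone (0.0343). Hes7 passed the low-count filter through the constitutive libraries alone, so the edgeR and limma-voom tests could hardly have found it lower in them. That limit holds for the lack of overlap as well.

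**Figure D2:**
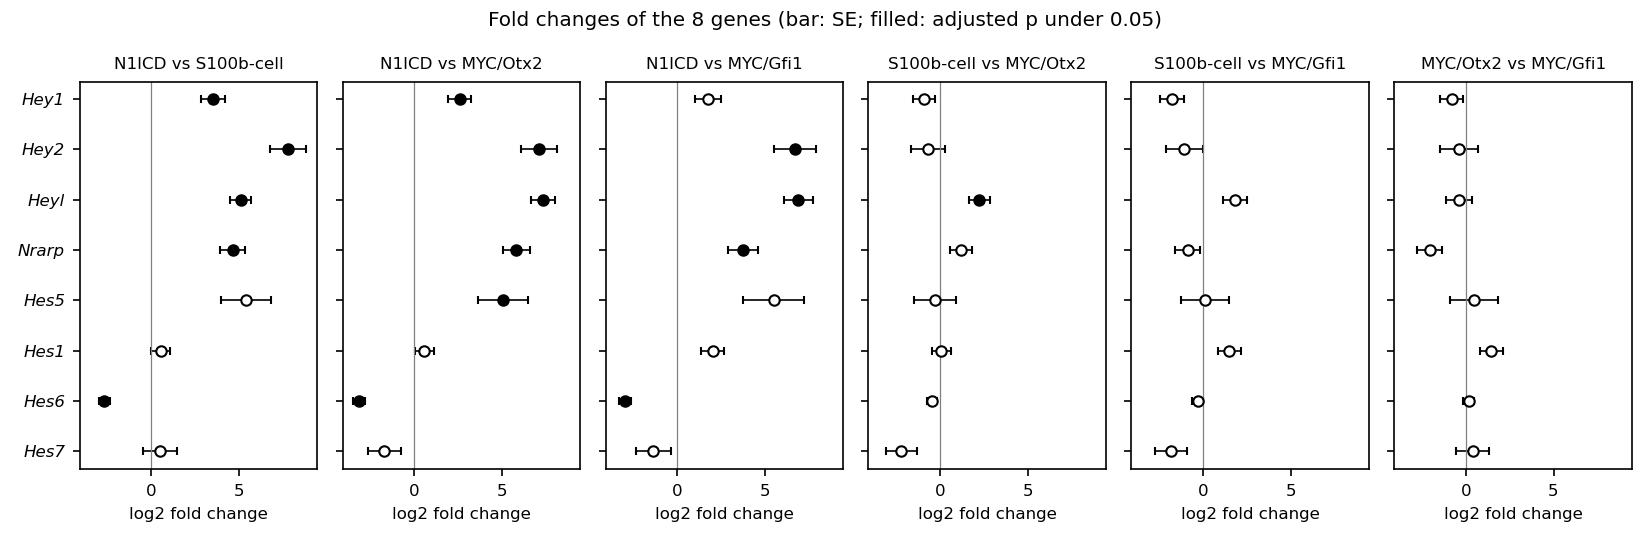
Log2 fold change (horizontal axis) of each of the 8 genes (rows) in the 6 comparisons between groups (panels); bars are SE and filled points have an edgeR adjusted p under 0.05. Filled points lie in the 3 panels that involve the N1ICD tumours, apart from Heyl in S100b-cell against MYC/Otx2.

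Counted by comparison, 4 of the 8 genes were higher and 1 lower in the N1ICD than in the S100b-cell tumours, where 0.808% of all genes were called higher and 0.407% lower. Against MYC/Otx2, 5 were higher and 1 lower, beside 12.0% and 9.76% of all genes. Against MYC/Gfi1, 3 were higher and 1 lower, beside 5.47% and 6.05%. The groups did not overlap for 5 of the 8 genes against S100b-cell, 6 against MYC/Otx2 and 7 against MYC/Gfi1, beside 26.1%, 41.5% and 38.0% of all genes. The count against S100b-cell depended on single libraries of that group, and so did the count over all genes. Without its library 3 only Hes6 stayed called against the N1ICD tumours. Hey2, for example, then had an edgeR adjusted p of 0.0892 and Hey1 of 0.182. Over all genes, 9 of 15055 were called there, beside 185 of 15228 with all libraries. When the N1ICD and MYC/Gfi1 groups were fitted alone, Hey2 was the only gene of the set still called between them, beside 15 of 12317 genes in all.

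Among the 3 groups without N1ICD, edgeR called 1 of the 8 genes, Heyl, between S100b-cell and MYC/Otx2, where 17.9% of all genes were called and 50.4% did not overlap, against 2 of 8. DESeq2 called Heyl and Hes7 there, and limma-voom and a fit of those groups alone called Hes7 and not Heyl (adjusted p = 0.0931 and 0.0543 for Heyl). None of the 8 was called by edgeR between S100b-cell and MYC/Gfi1 (4.35% of all genes) or between MYC/Otx2 and MYC/Gfi1 (5.46%). At an unadjusted p under 0.05 there were 3 in the first of these (Heyl, Hes1 and Hey1) and 2 in the second (Nrarp and Hes1), and DESeq2 called 0 and 1 (Nrarp, at -2.12 log2 with an adjusted p of 0.0371). The edgeR counts of 1, 0 and 0 in 8 are near the shares over all genes and are no result about the set. With 1 MYC/Gfi1 library left, which the fit assumes to vary like the other groups, 2 further calls appeared. Without MYC/Gfi1 library 1, Hey1 was lower in S100b-cell than in the other MYC/Gfi1 library (-2.43 log2, edgeR adjusted p = 0.0472), and without MYC/Gfi1 library 2, Nrarp was lower in MYC/Otx2 (-2.90 log2, edgeR adjusted p = 0.0358). The groups did not overlap for 3 of the 8 genes between S100b-cell and MYC/Gfi1 and for 0 between MYC/Otx2 and MYC/Gfi1, beside 41.3% and 43.6% of all genes.

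The balance within the set was thus turned round. In the N1ICD libraries, Hes6 gave on average 2.08% of the summed CPM of the 8 genes, Nrarp gave 39.1% and Hes5 33.4%, the last with a range from 0.406% to 67.0%. Heyl, Hey2 and Hey1 added 10.4%, 6.84% and 6.36%. In the other groups Hes6 alone gave 75.2% in S100b-cell, 80.3% in MYC/Otx2 and 73.2% in MYC/Gfi1 tumours, while Hey2 gave at most 0.283% in any library. The sum itself was 773 to 2088 CPM in the N1ICD libraries, 199 to 264 CPM in S100b-cell, 232 to 369 CPM in MYC/Otx2 and 231 to 343 CPM in MYC/Gfi1 libraries.

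**Figure D3:**
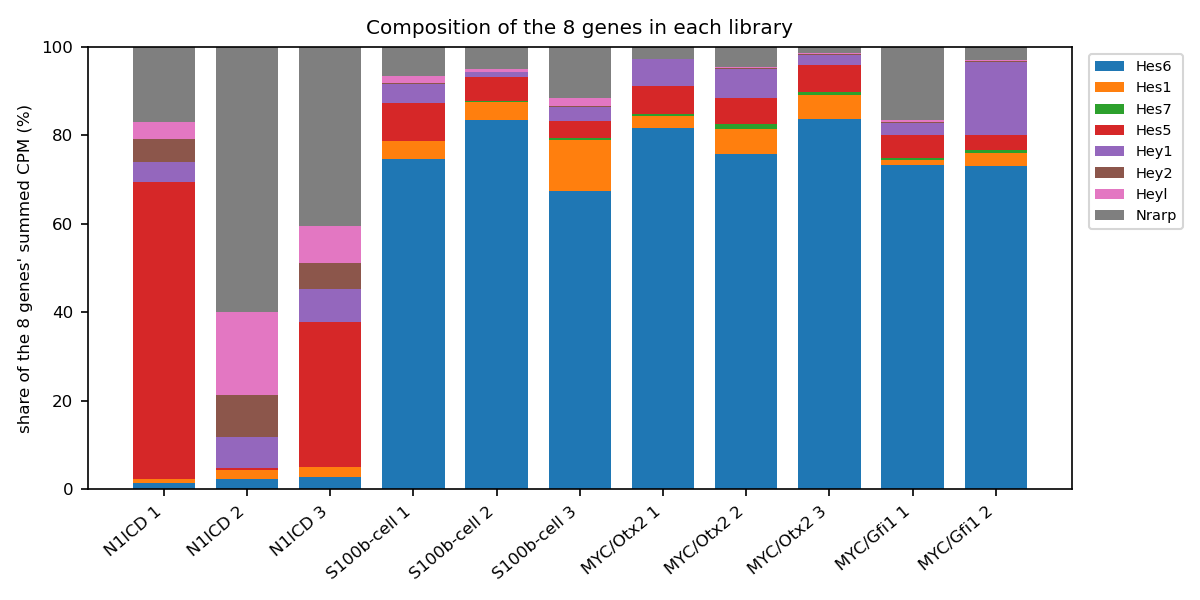
Share of each of the 8 genes in their summed CPM (vertical axis, percent) in each of the 11 libraries (bars). Hes6 fills most of each bar outside the N1ICD group, and Nrarp, Hes5 and the Hey genes fill the N1ICD bars, with little Hes5 in N1ICD library 2.

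The wider pathway was described from lists chosen with earlier results known, in the N1ICD tumours against the mean of the other 3 groups. In that comparison 9.48% of all genes tested were called higher and 4.83% lower. Each list count against that mean, here and below, stands beside these shares. Of 11 Notch receptors and ligands tested, 2 rose and 0 fell. These were Jag1, a ligand that is itself induced by Notch in vessel walls (4.66 ± 0.51 log2, edgeR adjusted p = 0.00116), and Notch3, the receptor of mural cells (4.83 ± 0.59, adjusted p = 0.00166). Among 14 other direct targets, 5 rose and 1 fell, with a median of 1.14, and Ccnd1, the cyclin D1 gene, led by p (4.45 ± 0.39, adjusted p = 4.57e-04). Pdgfrb and Cdkn1a, the gene of the cell cycle inhibitor p21, also rose, by 3.62 and 2.21 log2. Notch3 and Pdgfrb are also among the mural cell markers described further on.

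Machinery that makes and reads the Notch signal, and the partners of Hes and Hey proteins, gave few calls. The counts in this paragraph are near the shares over all genes (9.48% higher and 4.83% lower) and are no result about the lists. Of 25 genes of Notch processing and trafficking, 2 rose and 1 fell (median 0.13), among them Aph1b, a subunit of the gamma-secretase that frees the intracellular domain (2.02 ± 0.43, edgeR adjusted p = 0.0147), and Rfng, which adds sugars to Notch (-1.93 ± 0.30, adjusted p = 0.00403). Of 14 genes of the nuclear complex, 2 rose and 1 fell (median 0.31), including the coactivator gene Maml2 (1.50 ± 0.39, adjusted p = 0.0313). Of 16 partners of Hes and Hey proteins, 1 rose and 2 fell (median -0.14). Aes, a short relative of the Groucho corepressors that Hes proteins recruit, fell by 2.03 log2 (adjusted p = 0.00685), and Id1, a dimerisation inhibitor, rose by 2.63 log2 (adjusted p = 0.0181) at 250, 19.9 and 129 CPM in the N1ICD libraries.

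Of 12 proneural and neuronal genes that Hes proteins are known to repress, 1 rose (Gadd45g) and 2 fell, with a median of -3.77. Of the 15 listed genes, 6 to 7 had a count in each N1ICD library, against 11 to 13 in each other library. The N1ICD libraries also had the lowest totals, so several of these fold changes rest on few or no N1ICD counts. The sum over all 15 listed genes, however, overlapped between the N1ICD, S100b-cell and MYC/Otx2 groups. It was 476, 46.0 and 165 CPM in the N1ICD libraries and 47.6 to 423 CPM in S100b-cell. In MYC/Otx2 it was 163 to 310 CPM, and in the MYC/Gfi1 libraries 546 and 983 CPM. Neurod1, a differentiation factor of granule neurons, was at 6.43, 0.349 and 0.406 CPM in the N1ICD libraries, 3.43, 123 and 9.31 CPM in S100b-cell, 34.9, 87.7 and 68.5 CPM in MYC/Otx2, and 83.0 and 482 CPM in MYC/Gfi1 libraries. It fell by 5.33 log2 (edgeR adjusted p = 0.0407), though N1ICD library 1 overlapped with the S100b-cell libraries. Against the S100b-cell tumours alone, 0 of these 12 genes passed. Against the mean of the other groups, 0 of 11 mature granule cell markers rose and 3 fell. Against S100b-cell or MYC/Otx2 alone, 0 of the 11 passed. Against MYC/Gfi1 alone, 0 rose and 6 fell, beside 5.47% and 6.05% of all genes. Their summed level was 10.8 to 51.9 CPM in N1ICD and 124 to 159 CPM in S100b-cell libraries. It was 27.6 to 360 CPM in MYC/Otx2 libraries, and 187 and 3899 CPM in MYC/Gfi1 libraries. The part of granule cells in the proneural values was not tested. Among 4 further Hes-related genes tested, 0 passed against the mean. Helt, a Hey-related gene of the midbrain, was at 0 in all 3 N1ICD libraries and at 178, 154 and 185 CPM in the MYC/Otx2 libraries.

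Markers of other cell types moved with the N1ICD group. In bulk tumours, fewer cells of a type and less RNA per cell cannot be told apart. Of 14 mural cell markers, 11 rose and 0 fell against the mean of the other groups (median 4.52 log2, and 0.02 over all genes). Their summed level was 364, 6983 and 2974 CPM in the N1ICD libraries, 164 to 253 CPM in S100b-cell, 81.4 to 164 CPM in MYC/Otx2, and 137 and 219 CPM in MYC/Gfi1 libraries, and none of the defining markers Pdgfrb, Rgs5 and Kcnj8 was at 0 in any library. Beside these sums, Hey2 was highest (105 CPM) in N1ICD library 1, which had the smallest mural sum of the 3, while Heyl was highest (145 CPM) in library 2, which had the largest. Without N1ICD library 2, the log2 fold changes against the mean were 6.21 for Heyl, 7.32 for Hey2, 2.84 for Hey1 and 4.69 for Nrarp, all 4 called (edgeR adjusted p = 5.52e-04, 0.00235, 0.0171 and 0.00379). The N1ICD libraries kept in that fit, at 364 and 2974 CPM, had mural sums above every library without N1ICD. Leaving out library 2 therefore cannot show the part of mural cells in these rises, which was not tested.

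Across the 3 N1ICD libraries, Hes5 had the same order of levels as the summed astroglial and radial glial markers, and not that of the mural ones. An order of 3 libraries is not particular to astroglia, and other lists shared it. Proneural genes summed to 476, 46.0 and 165 CPM in N1ICD libraries 1, 2 and 3, and partners of Hes and Hey proteins to 1960, 699 and 786 CPM. The 14 astroglial markers summed to 4384, 427 and 1112 CPM in N1ICD libraries 1, 2 and 3, where Hes5 was at 1399, 3.14 and 385 CPM. Fabp7, a fatty acid binding protein of radial glia and itself a listed Notch target, was at 1058, 4.18 and 86.8 CPM there. The same sum was 264 to 465 CPM in S100b-cell, 186 to 432 CPM in MYC/Otx2, and 446 and 1607 CPM in MYC/Gfi1 libraries, so MYC/Gfi1 library 2 had a higher sum than N1ICD library 3 with Hes5 at 7.84 CPM. Of the 14 markers 3 rose against the mean and 0 fell. Gfap, Aqp4 and Aldh1l1, their defining genes, had counts in every library, and the part of astroglia in the Hes5 values was not tested.

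**Figure D4:**
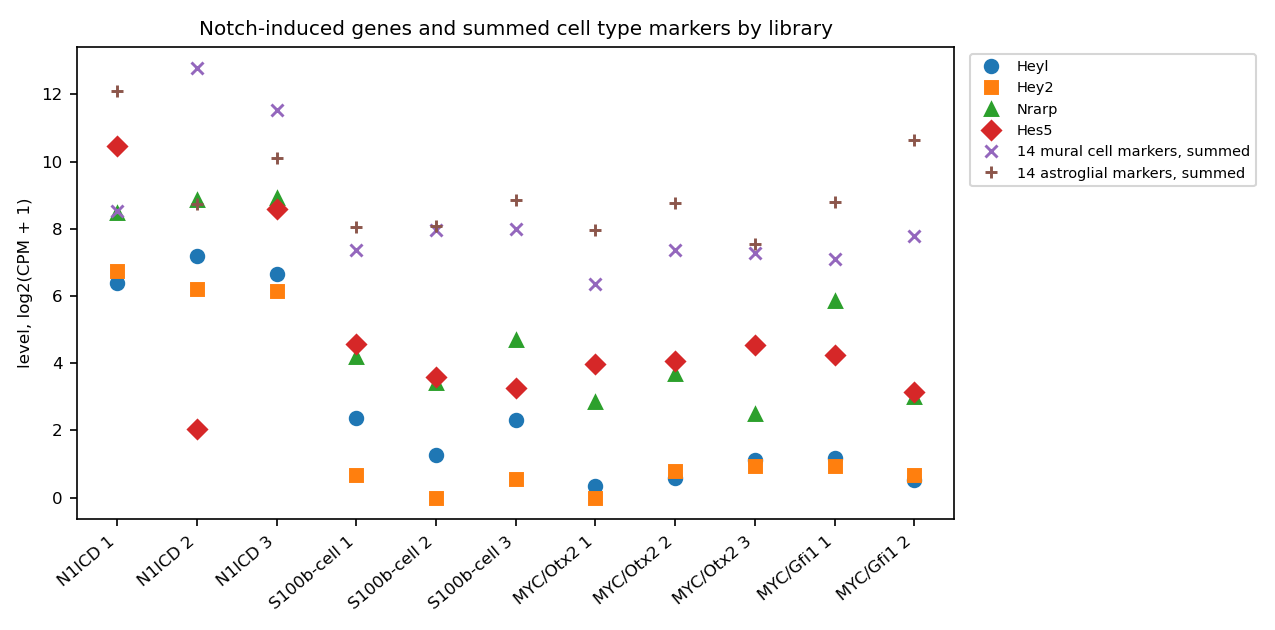
Levels of Heyl, Hey2, Nrarp and Hes5 beside the summed levels of 14 mural and 14 astroglial markers, as log2(CPM + 1) on the vertical axis, in each of the 11 libraries on the horizontal axis. Across the 3 N1ICD libraries Hes5 follows the order of the astroglial sum, an order that lists not drawn here share, while Heyl, Hey2 and Nrarp stay within a narrow range.

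The remaining marker lists were read in the same way against the mean of the other groups, beside the same 9.48% of all genes called higher and 4.83% lower. Of 12 endothelial markers, 2 rose and 0 fell, and of 12 microglia and macrophage markers, 0 rose and 4 fell. Of 11 markers each, 0 granule cell progenitor genes rose and 1 fell, and 1 oligodendrocyte lineage gene rose and 1 fell. None of 5 photoreceptor and Group 3 markers or of 3 B and plasma cell markers passed, and 3 of 6 mitochondrially encoded genes rose. Against MYC/Otx2 alone, 2 of the 12 microglia and macrophage markers rose and 1 fell, beside 12.0% and 9.76% of all genes. Against S100b-cell, 0 rose and 1 fell (0.808% and 0.407%), and against MYC/Gfi1, 0 rose and 4 fell (5.47% and 6.05%). Their summed level was 176 to 296 CPM in N1ICD and 135 to 448 CPM in MYC/Otx2 libraries, which overlapped. It was 640 to 914 CPM in S100b-cell and 583 and 810 CPM in MYC/Gfi1 libraries.

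Genes with the most similar pattern were sought by the root-mean-square difference between centred log2(CPM + 1) profiles over the 11 libraries, among 10467 genes outside the set. Rasl12 (0.574) and Tnnt3 (0.597) were nearest to Heyl, beside a median of 2.67 over all candidates. Hey2 was nearest to Atp2b4 (0.726), a calcium pump of the plasma membrane, and Nrarp to Olfml2a (0.814), with medians of 2.73 and 2.52. Hes5 was nearest to Cybrd1 (0.713, median 2.50) and Hey1 to AW011738 (0.603, median 1.67). Within the set, Hey2 and Heyl differed by 0.711 and Heyl and Nrarp by 0.836. Foxred2 was nearest to Hes6 (0.381, median 1.49), at 3.21 CPM on average in N1ICD, 24.9 CPM in S100b-cell, 30.2 CPM in MYC/Otx2 and 28.7 CPM in MYC/Gfi1 tumours. Hes1 lay nearest to Wsb1 (0.481, median 1.04), and Hes7 to Fxr2 (0.254, median 0.889), although Fxr2 averaged 90.7 CPM in N1ICD, 93.7 CPM in S100b-cell, 234 CPM in MYC/Otx2 and 181 CPM in MYC/Gfi1 tumours, far above Hes7, since centring leaves out the level.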

How the data were processed

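RNA of tumours was sequenced as 11 libraries with a 3′ tag kit (QuantSeq FWD, with unique molecular identifiers added, per the labels' protocols). Per the submitters' processing notes, STAR 2.4.1d, HTSeq 0.6.1 and build mm10 were used. Neither the strand setting nor any collapse of identifiers is stated there. The deposited values are raw counts per gene, not normalized by the authors, so floors cover counting error only.

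Counts were filtered (filterByExpr by group), scaled by TMM and fitted with edgeR 4.0.16 in R 4.3.3 (robust quasi-likelihood, 4 groups in 1 fit, common biological coefficient of variation 0.562, 7 residual degrees of freedom). Two-sided p-values were adjusted by Benjamini-Hochberg over 15228 genes and called at 0.05. The SE is the log2 fold change over the square root of F. The fit was tested on simulated data. No 2 libraries of a group were copies (chi-square per degree of freedom 20.9 to 126). DESeq2 1.42.0, limma-voom (limma 3.58.1), other scalings and filters, a replicate block and leaving out each library were the alternatives. The 8 genes and all lists were chosen with earlier results of these data known. Genes named are the 8, up to 4 called and 2 uncalled genes of a list, the 3 nearest profiles, defining markers and genes of the labels.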

Additional observations from a re-analysis of the deposited data

How the results depend on the processing

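Against the mean of the other 3 groups, 6 of the 8 genes were called in the edgeR fit and 5 (limma-voom, which lost Hes5 at an adjusted p of 0.285) to 6 under the alternatives, and leaving out each library gave 6 each time. Any difference among the 4 groups was called for 6 genes, and for 5 to 6 without each library. N1ICD against MYC/Gfi1 gave 4, with 6 under DESeq2 (which added Hes1 and Hes5), 1 (Hey2) when those 2 groups were fitted alone, 3 under the replicate block (Nrarp at an adjusted p of 0.0554) and 3 to 5 without each library. N1ICD against S100b-cell gave 5, with 6 under DESeq2 (which added Hes5), 3 under the replicate block (Nrarp at 0.0589) and 1 to 5 without each library. N1ICD against MYC/Otx2 gave 6, with 4 to 6 without each library. S100b-cell against MYC/Otx2 gave 1, with 2 (Heyl and Hes7) under DESeq2, 0 under the replicate block and 0 to 1 without each library. S100b-cell against MYC/Gfi1 gave 0, with 0 to 1 without each library. MYC/Otx2 against MYC/Gfi1 gave 0, with 1 (Nrarp) under DESeq2 and 0 to 1 without each library. Calls over all genes shifted as well. For N1ICD against MYC/Gfi1, edgeR called 1754 of 15228 and DESeq2 3168 of 16320. Those 2 groups alone gave 15 of 12317, and the replicate block 789 of 15228. For N1ICD against S100b-cell, edgeR called 185 of 15228 and DESeq2 1287 of 14954. The replicate block gave 59 there, and leaving out S100b-cell library 3 gave 9 of 15055. Shifts among the 8 genes are thus no result about them alone. The cause of these shifts was not tested, except that leaving out libraries and fitting groups alone use fewer samples.

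Directions reversed only for differences that the edgeR fit with all libraries did not call. Of these, Nrarp between MYC/Otx2 and MYC/Gfi1 was called by DESeq2, as given above. The ranges here are log2 fold changes without each library. Against S100b-cell, Hes7 in the N1ICD tumours ran from -0.23 to 1.11. Between S100b-cell and MYC/Gfi1, Hes5 ran from -0.46 to 0.87 (-0.0376 with total counts only), Hes6 from -0.56 to 0.0305 and Nrarp from -1.71 to 1.33. Between S100b-cell and MYC/Otx2, Hes1 ran from -0.59 to 0.43 (-0.0293 with total counts only and -0.0251 under limma-voom). Between MYC/Otx2 and MYC/Gfi1, Hes5 ran from -0.0352 to 1.18, Hes6 from -0.11 to 0.48, Hey1 from -1.50 to 0.51, Hey2 from -0.95 to 0.13, Heyl from -1.12 to 0.60 and Nrarp from -2.90 to 0.14.

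Replicate numbers did not pair libraries: over 15 same-number pairs, deviations from group means correlated between -0.18 and 0.21, with 3 over 0.1. Total-count scaling moved the median of all genes by -0.30 log2 for N1ICD against MYC/Gfi1 and by -0.24 against MYC/Otx2. In the N1ICD libraries, 1 count stood for 0.349 to 0.429 CPM, which limits Hes7.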
